A study of Mus musculus with 6 samples.

Results

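The fatty acid desaturases Scd1, Scd2, Scd3, Scd4, Fads1, Fads2 and Fads3 were compared between liver tumors and normal livers of C3H mice. These 7 of the 34741 genes named on the array were represented by 11 of the 55681 probes of a one-color Agilent mouse expression array, taken by the gene name of the probe or by the current symbol of its transcript accession. The family was chosen by the measured rise of Scd2, among the largest in this same comparison, so the change of Scd2 is given as a description without a test. The 3 normal livers and the 3 liver tumors came from male C3H/HeN mice aged 74 to 75 weeks, a strain prone to spontaneous liver tumors. All were F2 animals of the control group of an exposure project and ate the standard diet CA-1, and per the study's methods the tumors carried a Ha-ras mutation. Whether each array was a separate mouse is not stated, so p-values measure the spread between these samples.

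Stearoyl-CoA desaturases place the first double bond in saturated acyl chains and so make monounsaturated fatty acids such as oleate, and Scd1 is the main form of adult mouse liver. Fads1 and Fads2 are the front-end desaturases that, alternating with elongases, turn dietary linoleate and alpha-linolenate into long polyunsaturated fatty acids. Both kinds of enzyme sit in the endoplasmic reticulum and draw electrons through cytochrome b5. Hepatic desaturase genes are classic targets of SREBP-1c, LXR and ChREBP.

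All 7 genes lie on mouse chromosome 19 in a pair of clusters. In the assembly GRCm38.p6 the Scd cluster runs over 204422 bases, with Scd3 at chr19:44203288-44244016, Scd2 at chr19:44293676-44306864, Scd4 at chr19:44333326-44346743 and Scd1 at chr19:44394450-44407709. The Fads cluster covers 156020 bases, with Fads3 at chr19:10040855-10060113, Fads2 at chr19:10062765-10101503 and Fads1 at chr19:10182877-10196874.

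Because the Scd genes are close paralogs, the reading of each one rests on its probe. The deposited annotation tied one Scd3 probe, A_55_P2099594, to an Scd1 transcript as well as to Scd3, so its signal cannot be assigned to either gene. This 60-base probe is shown whole because the account of Scd3 turns on it, and the first 30 bases of the Scd1, Scd2 and remaining Scd3 probes are shown so that the probes can be told apart. No base is set in capitals, since no motif was searched. The longest run of bases common to any pair of the 6 Scd probes was 8.
Shared Scd1 and Scd3 probe A_55_P2099594, mm9 chr19:44289995-44290054, plus strand: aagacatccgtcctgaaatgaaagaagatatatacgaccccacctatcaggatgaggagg
Scd1 probe A_52_P682382, mm9 chr19:44469387-44469446, minus strand: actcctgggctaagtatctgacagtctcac
Scd2 probe A_51_P129464, mm9 chr19:44381024-44381083, plus strand: acatttggggatcctctgcagaggagtatt
Scd3 probe A_55_P2052759, mm9 chr19:44318249-44318308, plus strand: ataaagtcaaccataggtcaagaggcagag
Scd3 probe A_51_P446045, mm9 chr19:44316703-44316762, plus strand: ttcagggtaggtgtctcaagccaaatccaa
The coordinates are those of the array design, and no mm9 gene models were used here to place the probes in exons or untranslated regions.

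Expression values below are processed signals divided by the 75th percentile of the same array, so a value of 1 is the brightness at that percentile. Levels of different probes are not set against each other, because probes differ in how brightly they report a transcript. The 75th percentile was 124 to 183 units over the 6 arrays, 42.7% to 46.7% of the spots were well above background, and 0 spots were saturated. All normal livers shared one slide and all tumors another, and the recorded scan split the same way. An effect of the slide or scan and one of the tissue thus cannot be told apart in any result. The median local background also split by group, at 42.0 to 45.0 units on the normal arrays and 22.0 to 23.0 units on the tumor arrays. In bulk tissue, fewer cells of a type and less RNA per cell cannot be told apart either.

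Of the 7 desaturases, 6 had a probe well above background on all 3 arrays of a group and were tested, and Scd4 was not. In the limma fit over all 24901 tested probes, with Benjamini-Hochberg adjusted p under 0.05 as the threshold, 3 of the 5 tested members other than Scd2 passed: Fads1 and Fads2 were higher in the tumors, and Fads3 was lower. Of all 18567 genes tested, 34.2% passed the same threshold, 13.1% as higher and 21% as lower in the tumors. The family was chosen on this contrast, and nothing is read from the members' share. The groups did not overlap for 3 of the same 5 members and for 51.8% of all genes tested. The median log2 change was 0.91 over these 5 members, with Scd3 read from a probe shared with Scd1, and -0.13 over all genes.

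**Figure D1:**
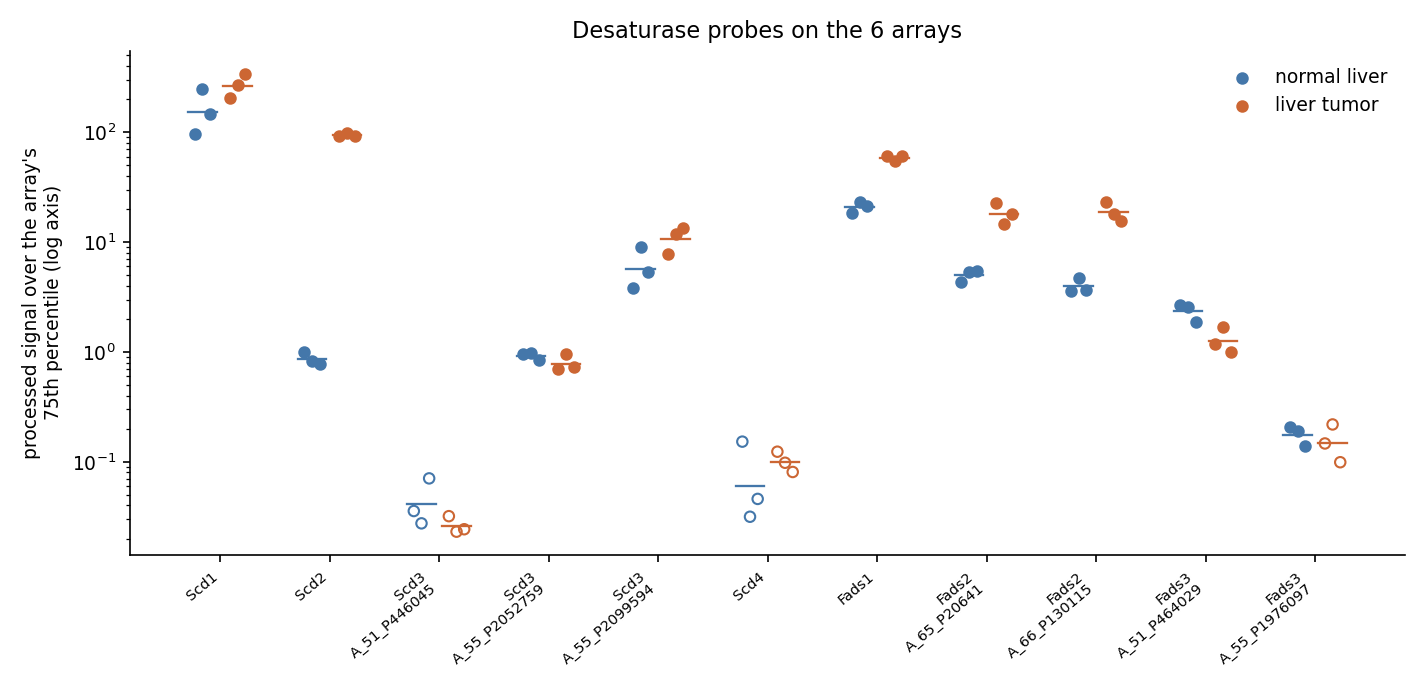
Expression (processed signal over the array's 75th percentile, log axis) of the 11 desaturase probes, with 1 point per array, 3 normal livers and 3 liver tumors; short lines are means of the log2 values, and open points mark groups in which not all 3 arrays were well above background. The Scd2 points move from below 1 in the normal livers to 92.5 or more in the tumors, while the Scd1 points of the 2 groups overlap.

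Scd2, the stearoyl-CoA desaturase best known from brain and adipose tissue, was at 0.998, 0.831 and 0.777 in normal livers 1 to 3. In the tumors it was at 92.5, 99.2 and 92.7. The 3 tumors were close to each other and all far above the 3 normal livers. The fitted difference was 6.78 on the log2 scale (SE 0.13), or 109.7-fold, and it is the value that chose the family. The probe was well above background on all 6 arrays, so this fold is a measured one rather than a bound.

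Of all 18567 genes tested, 30 had a larger fitted rise than Scd2. Among the 16482 genes measured well above background on all 6 arrays, Scd2 was the fourth by the size of its fitted rise. Just above it stood Spink1, a trypsin inhibitor, with a log2 change of 7.65. Just below it stood Cdkn2b, a cyclin-dependent kinase inhibitor, with a log2 change of 6.72. The log2 values of Scd2 had an SD of 0.06 over the 3 tumors and 0.19 over the 3 normal livers. Over all genes tested the median SD was 0.18 in tumors and 0.16 in normal livers, and 91.2% of genes varied more between the tumors than Scd2 did.

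Scd1 makes most of the oleate of normal liver, and its probe read 96.7, 248 and 147 in the normal livers. In the tumors it read 203, 271 and 341. Normal liver 2 lay above tumor 1, so the groups overlapped. The log2 change was 0.80 (SE 0.36, limma adjusted p = 0.136), and its 95% interval ran from -0.07 to 1.68, which takes in no change and a rise larger than that of Fads1. Without normal liver 2 the change was 1.16 and passed the threshold (limma adjusted p = 0.0453), so that 1 array decided the call.

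The probe shared by Scd1 and Scd3 followed the Scd1 probe over the arrays. It read 3.84, 9.05 and 5.39 in the normal livers and 7.79, 11.8 and 13.4 in the tumors. As for Scd1, the lowest array was normal liver 1, the highest was tumor 3, and the groups overlapped. Taken against its own normal mean, this probe lay between -0.04 and 0.22 log2 units from the Scd1 probe on every one of the 6 arrays. Its log2 change was 0.91 (SE 0.35, limma adjusted p = 0.0916), and without normal liver 2 it was 1.24 and passed the threshold (limma adjusted p = 0.0374).

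Scd3 is a desaturase known from skin and the Harderian gland. The Scd3 probe tied to no other family member read 0.954, 0.976 and 0.842 in the normal livers. In the tumors it read 0.692, 0.963 and 0.722. Tumor 2 lay among the normal livers, while the other 2 tumors were below them. The log2 change of -0.23 (SE 0.16, limma adjusted p = 0.298, 95% interval -0.62 to 0.15) thus had the opposite sign to that of the shared probe, and on single arrays this probe stood as far as 1.52 log2 units below the Scd1 profile. A further Scd3 probe, A_51_P446045, did not rise well above background on a single array. A statement on Scd3 itself therefore rests on the probe near a value of 1, which did not pass the test.

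Scd4, known as a heart isoform in mice, was represented by a single probe that was not well above background on any of the 6 arrays. Its signals ran from 0.0316 to 0.153 in the normal livers and from 0.0807 to 0.124 in the tumors, and no fold is given.

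**Figure D2:**
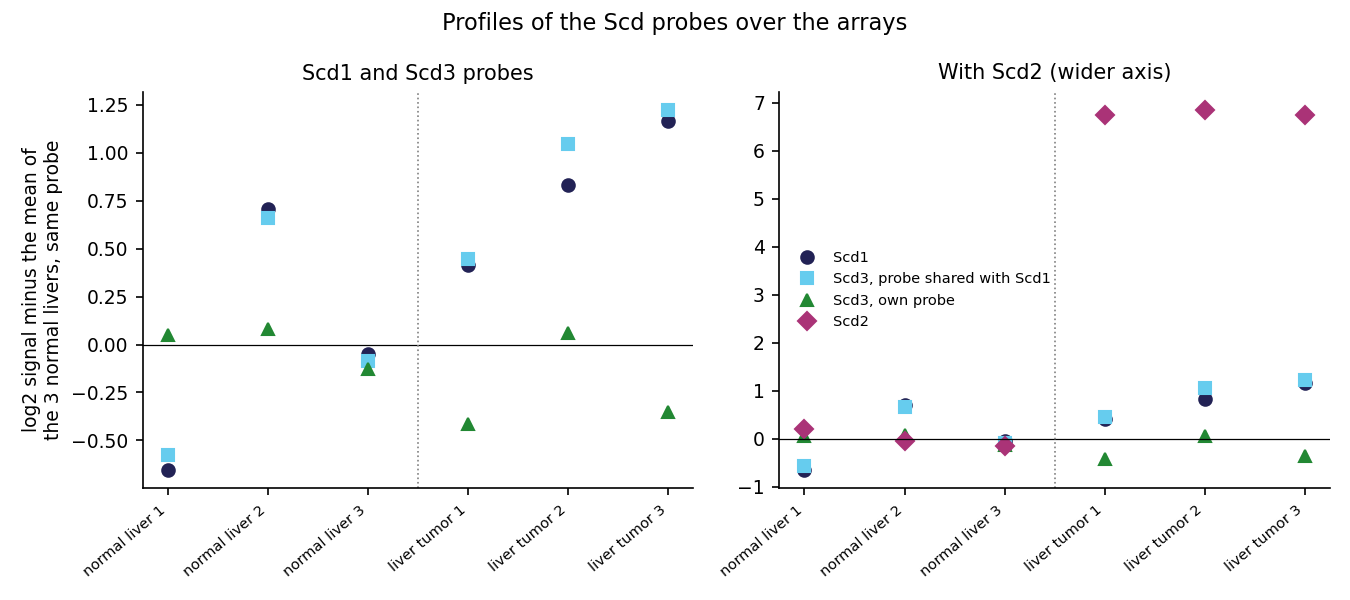
Log2 signal minus the mean of the 3 normal livers for the same probe, with 1 point per array, for the Scd1 and both tested Scd3 probes (left) and with Scd2 added on a wider axis (right). The shared probe stays within 0.22 log2 units of Scd1 on every array, the Scd3 probe of its own does not follow it, and the Scd2 points lie at 6.74 to 6.84 in the tumors.

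Fads1, the delta-5 desaturase that makes arachidonate and eicosapentaenoate, read 18.3, 23.3 and 21.1 in the normal livers. It read 60.1, 54.7 and 61.1 in the tumors. Every tumor was above every normal liver. The rise was 2.81-fold (log2 change 1.49, SE 0.13, limma adjusted p = 7.76e-04).

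Fads2, the delta-6 desaturase that opens the pathway, had 2 probes in the test. The brighter one, A_65_P20641, read 4.35, 5.36 and 5.45 in the normal livers and 22.8, 14.5 and 17.9 in the tumors. The other, A_66_P130115, read 3.55, 4.72 and 3.68 in the normal livers and 23.0, 18.2 and 15.7 in the tumors. On both probes the groups were apart and tumor 1 was the highest array. The log2 changes were 1.85 (SE 0.19, limma adjusted p = 0.00155) and 2.24 (SE 0.19, limma adjusted p = 6.81e-04).

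Fads3, a family member that acts on sphingoid bases, went the other way. Its brighter probe read 2.67, 2.57 and 1.87 in the normal livers and 1.17, 1.68 and 0.993 in the tumors. The groups did not overlap, but normal liver 3 and tumor 2 were near each other. The log2 change was -0.90 (SE 0.24, limma adjusted p = 0.0288), and the call was lost on leaving out normal liver 1 (adjusted p = 0.0856), normal liver 2 (0.0898), tumor 1 (0.0709) or tumor 3 (0.0703). The dimmer probe, A_55_P1976097, overlapped between the groups, at 0.138 to 0.208 in the normal livers and 0.0990 to 0.219 in the tumors, and its log2 change was -0.26 (SE 0.31, limma adjusted p = 0.555). The fall of Fads3 thus passed on 1 of its 2 probes.

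**Figure D3:**
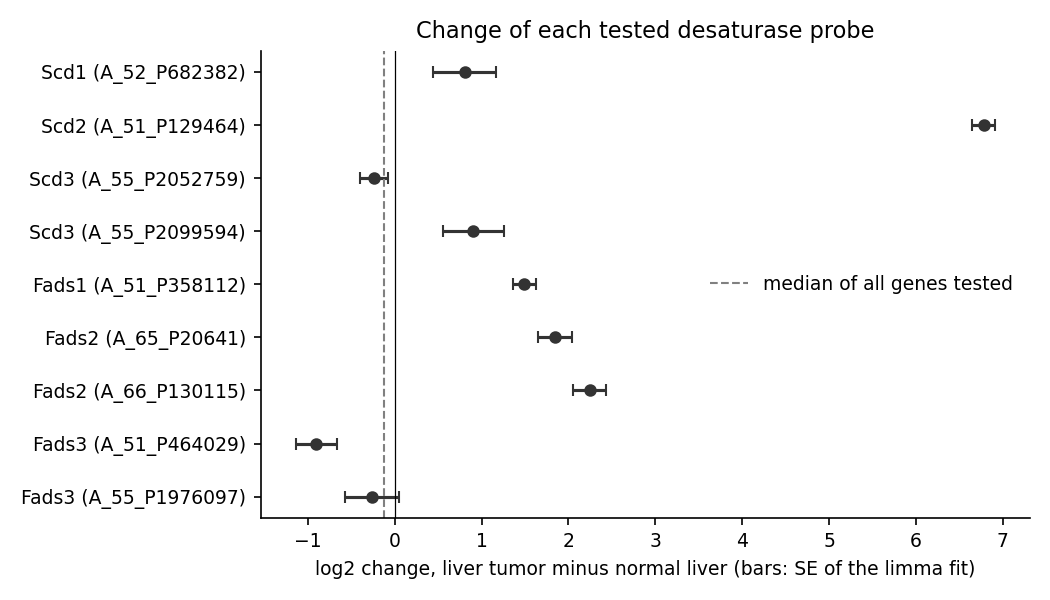
Log2 change (liver tumor minus normal liver) of the 9 tested desaturase probes, with bars for the SE of the limma fit on 3 arrays per group; the dashed line is the median of all genes tested, -0.13. Fads1 and both Fads2 probes lie between 1.49 and 2.24, Fads3 lies below 0, and Scd2 lies far to the right at 6.78.

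Members were also compared with each other in how much they changed. For the 10 pairs without Scd2, the difference between the members' log2 values was taken on each array and compared between groups with a two-sided exact permutation test (Scd3 by the shared probe), which with 3 arrays against 3 cannot go below p = 0.1. The neighbors Fads2 and Fads3 differed most, with the change of Fads2 above that of Fads3 by 2.75 log2 units (SE 0.45, exact p = 0.1, adjusted p = 0.143). Fads1 changed by 2.40 log2 units more than Fads3 (SE 0.34, exact p = 0.1, adjusted p = 0.143). Fads1 and Fads2, the latter by its brighter probe, differed least among the Fads pairs, at -0.35 (SE 0.16, exact p = 0.1, adjusted p = 0.143). The other Fads2 probe had a larger log2 change, 2.24 against 1.49 for Fads1. No pair could pass the threshold. As a description, the change of Scd1 minus that of Scd2 was -5.97 log2 units (SE 0.52).

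The genes next to the clusters were read for position. Within 250000 bases of the Scd cluster, 8 other genes were tested, with log2 changes from -1.04 for Cyp2c23 to 0.69 for Bloc1s2, and 1 was called higher and 3 lower. Within the same distance of the Fads cluster, 6 other genes were tested, with log2 changes from -0.85 for Fth1, the ferritin heavy chain, to 1.44 for Incenp, a chromosomal passenger protein. Of these, 1 was called higher and 1 lower. Scd2 was chosen for the size of its rise, so nothing is read from its neighbors changing less.

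The genes that work with the desaturases were taken as 6 lists of 75 genes in all, of which 67 were tested. The test called 15 of these genes as higher in tumors and 13 as lower, beside 13.1% and 21% of all genes. Scaling by spike-in controls gave 18 higher and 7 lower, and quantile normalization gave 18 higher and 9 lower. With probes well above background on all 6 arrays the test called 15 higher and 12 lower.

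Of 5 tested genes of electron supply, 1 rose, 1 fell and 3 did not pass. Cyb5r1, a cytochrome b5 reductase, rose from 1.15 to 1.33 in the normal livers to 2.77 to 3.69 in the tumors (log2 change 1.38, SE 0.14, limma adjusted p = 0.00144). Cyb5a, the microsomal cytochrome b5 itself, fell from 683 to 794 in the normal livers to 285 to 409 in the tumors (log2 change -1.11, SE 0.16, limma adjusted p = 0.00462). The median of the list was -0.07.

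In fatty acid synthesis and elongation 5 of 18 tested genes rose and 0 were called lower by limma, where 4 had a negative change at an unadjusted p under 0.05, and the median was 0.13. Fasn, the fatty acid synthase, read 2.77 to 3.75 in the normal livers and 6.23 to 8.40 in the tumors (log2 change 1.23, SE 0.17, limma adjusted p = 0.00404). Acly, which supplies cytosolic acetyl-CoA, rose by 1.21 on the log2 scale (SE 0.17, limma adjusted p = 0.00395). Elovl7, an elongase, did not reach well above background on the normal arrays, and in the main processing the tumors were at least 24.0-fold higher (limma adjusted p = 4.87e-04). Elovl7 entered the test through the tumor arrays alone, so its p is no support apart from that bound. Over 6 scalings its fitted log2 change ran from 2.81 to 6.17, so the bound depends on the processing. Acaca and Elovl2 were the other genes called.

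Elovl3, an elongase of very long saturated and monounsaturated chains, was chosen after its values were seen. It read 104, 84.6 and 44.4 in the normal livers and 0.0468, 10.4 and 9.90 in the tumors. Every tumor was below every normal liver, and tumor 1 was far below the other tumors and not well above background. The fitted log2 change of -5.43 (SE 2.05) did not pass the threshold (limma adjusted p = 0.0856).

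Among 20 regulators of desaturase genes, 2 rose and 4 fell, with a median of -0.17. Pparg, the nuclear receptor of fat storage, rose by 1.03 on the log2 scale (SE 0.23, limma adjusted p = 0.0188). Mlxipl, which encodes ChREBP, had a log2 change of -0.87 (SE 0.15, limma adjusted p = 0.00722). Rxra, the shared partner of LXR and PPAR, had a log2 change of -0.81 (SE 0.10, limma adjusted p = 0.00244). Mlxipl and Rxra kept their sign over 6 scalings and were each called in 5, with the smallest changes at -0.65 and -0.59. Srebf1, the gene of SREBP-1, and Nr1h3, the gene of LXR alpha, were also called lower, and Mbtps2 was called higher.

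In acyl activation and esterification 4 of 12 tested genes rose, 4 fell and the median was 0.29. Gpam, the first acyltransferase of glycerolipid synthesis, rose by 1.75 on the log2 scale (SE 0.22, limma adjusted p = 0.00283). The acyl-CoA synthetases moved in both directions, with Acsl5 higher by 1.28 (SE 0.14, limma adjusted p = 0.00172). Acsl1 had a log2 change of -1.52 (SE 0.16, limma adjusted p = 0.00154).

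In polyunsaturated acyl handling 2 of 8 tested genes rose and 4 fell, with a median of -0.35. Hsd17b4, the peroxisomal bifunctional enzyme needed for docosahexaenoate, had a log2 change of -1.12 (SE 0.13, limma adjusted p = 0.00198). Abcd2, a peroxisomal transporter of very long acyl chains, did not reach well above background on the normal arrays, and the tumors were at least 6.82-fold higher (limma adjusted p = 3.09e-05), and like Elovl7 it entered the test through the tumor arrays alone. Of the other desaturases and hydroxylases 4 were tested, with a median of 0.41, and only Sc5d, a sterol desaturase, passed, with a log2 change of 0.90 (SE 0.13, limma adjusted p = 0.00465).

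**Figure D4:**
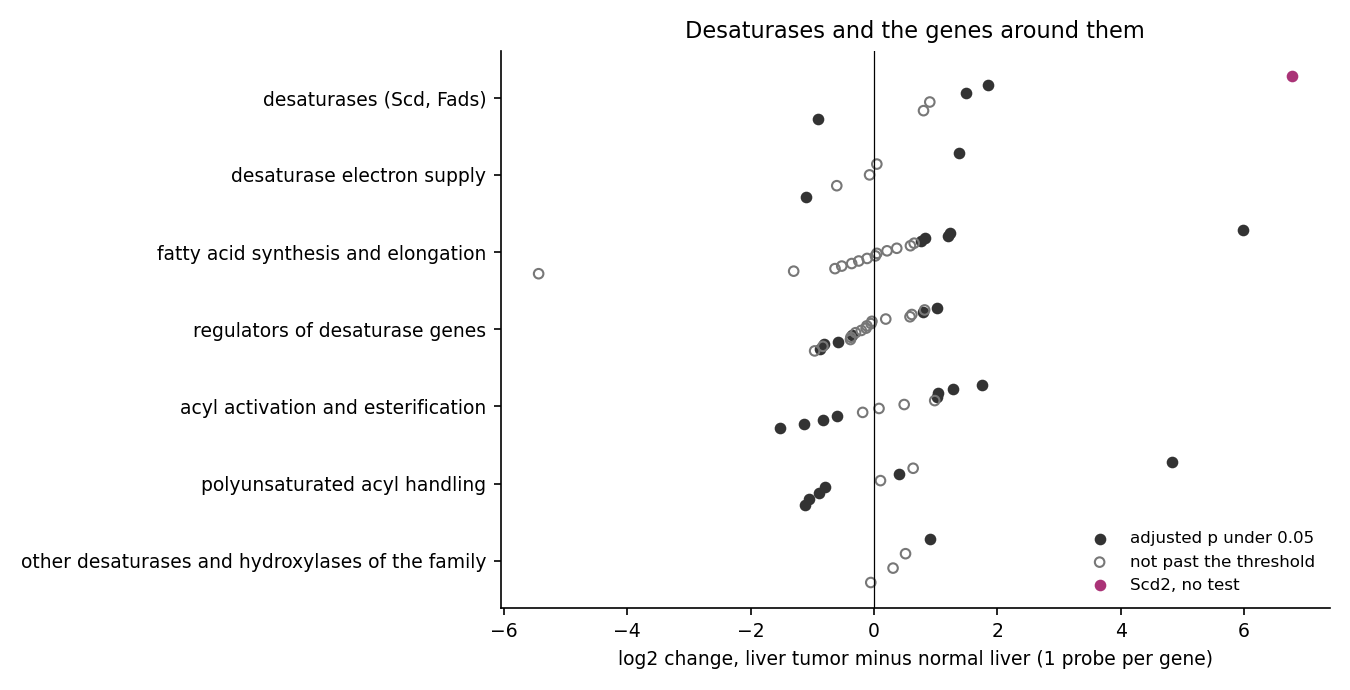
Log2 change (liver tumor minus normal liver, 1 probe per gene) of the 6 tested desaturases and of the 67 tested genes of the 6 lists; filled points passed adjusted p under 0.05, open points did not, and Scd2 has no test. The synthesis and elongation genes that passed are all to the right of 0, at 0.76 to 5.99, while the other lists hold called genes on both sides, except the last, where 1 gene passed. The 5.99 of Elovl7 is a fitted value against normal arrays not well above background, and its bound is 4.59. The point of Abcd2 is likewise a fitted value, with a bound of 2.77, and both bounds hold for the main processing.

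The genes whose profile over the 6 arrays was nearest to that of Scd2 were found by the distance between log2 values, each taken from its own normal mean, among 18558 genes. They were Pnpla5, Cdkn2b, Prom1, Tlr1 and Psg26, at distances of 0.65 to 0.80 log2 units. Pnpla5, a lipase of the patatin family, read 5.17, 3.93 and 5.01 in the tumors and did not reach well above background in the normal livers, so the tumors were at least 41.1-fold higher. Tlr1 and Psg26 did not reach it in the normal livers either, and the tumors were at least 24.8-fold and 33.5-fold higher. Pnpla5, Tlr1 and Psg26 entered the test through the tumor arrays alone, and their distances rest on dim normal signals. Prom1, a membrane glycoprotein, read 0.291 to 0.332 in the normal livers and 25.5 to 32.9 in the tumors. With background correction by normexp none of the 5 was among the nearest, and the cause was not tested.

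Scd2 is best known from brain and adipose tissue, though its probe was well above background in the normal livers too. Marker lists of liver and other cells are given beside it. The summed level of 12 hepatocyte markers was 11274 to 12286 in the normal livers and 11128 to 11630 in the tumors. The Alb, Serpina1a, Ahsg and Trf probes gave most of this sum. Apoa1 was called higher (log2 change 0.90, SE 0.14, limma adjusted p = 0.00565). Cps1 (-1.48, SE 0.22, limma adjusted p = 0.00453) and Tat (-1.43, SE 0.19, limma adjusted p = 0.00351) were called lower. All 12 were well above background on all 6 arrays. Of 6 adipocyte markers, Adipoq, Plin1, Lep and Retn were not well above background on any array and Cfd was so on 1 normal array, while Adrb3 had a log2 change of -0.97 (SE 0.23, limma adjusted p = 0.0219). The summed level of these 6 was 10.9 to 14.0 in the normal livers and 5.12 to 8.83 in the tumors, nearly all of it from the Adrb3 probe, which alone gave 4.85 to 8.67 in the tumors. Of the Schwann cell markers, Prx and Sox10 stayed below that level on all 6 arrays.

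Some marker lists did move with the tissue. Of 6 tested macrophage markers 4 were called lower, and the summed level of the 7 on the array went from 72.8 to 116 in the normal livers to 37.0 to 58.4 in the tumors. Of 7 stellate cell and fibroblast markers 4 were called lower and 1, Col1a1, higher, with summed levels of 81.9 to 101 and 24.3 to 43.9. The Dcn probe gave most of this sum, at 75.8 to 96.4 in the normal livers and 17.8 to 37.7 in the tumors. Of 3 tested lymphocyte markers 1, Cd4, was called higher, with summed levels of 65.3 to 69.2 and 141 to 244. The Cd4 probe gave most of this sum, at 58.8 to 60.9 in the normal livers and 134 to 235 in the tumors. Cd3e had a log2 change of 0.03 (SE 0.16, limma adjusted p = 0.904) and Cd79a one of 0.80 (SE 0.26, limma adjusted p = 0.0565). Of 6 endothelial markers 2 were called lower, with summed levels of 104 to 117 and 80.0 to 88.7. Of 4 tested cholangiocyte markers limma called 0, also at an unadjusted p under 0.05, with summed levels of 2.33 to 2.93 and 1.89 to 2.19. Of 4 tested neutrophil markers limma called 0, where 1 was lower at an unadjusted p under 0.05, with summed levels of 8.14 to 11.2 and 8.53 to 22.0. Both tested Schwann cell markers missed the threshold, also unadjusted. Their part in the desaturase values was not tested.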

How the data were processed

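Total RNA of 3 normal livers and 3 liver tumors was labeled with Cy3 and hybridized to 6 one-color Agilent SurePrint G3 Mouse arrays (62976 spots). The authors deposited Feature Extraction output with background-subtracted, detrended signal intensity per spot, and a table of the ratio of each signal to the 75th percentile of its array; 377351 of 377856 ratios equal the signal over that percentile within rounding, so its scale is known. Feature Extraction is 10.7.3.1 per the file headers and 12.0.3.1 in the submitters' processing notes, and the methods name another version. The table held 0 columns of other samples.

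Here, log2 processed signal minus the log2 75th percentile of the array was used, without control and outlier spots, averaging spots of a probe. A probe was tested where every array of one group, or of both, reported it well above background. Groups were compared with limma 3.58.1 in R 4.3.3 (lmFit, eBayes; Benjamini-Hochberg over 24901 probes; threshold 0.05). A gene was read from its brightest probe. Intervals are at 95%. The fit was checked on simulated data, and 6 arrays limit the precision. Where no array of a group was well above background, a fold is a bound against the higher of the dim signal and the lowest signal well above background on each array. Such bounds hold for the main processing. Of the probes, 27235 were named by accession, 3581 by symbol and 565 by synonym, from RefSeq genes of GRCm38.p6, and 24300 kept the name of the array design.

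The members and gene lists were chosen with earlier results of these data known. All probes of the 7 members were named, and from each list at most 3 called genes of largest change, with the 5 genes nearest to Scd2. A few genes that these rules name are not reported here. Alternatives were other background corrections, scalings, filters, tests and arrays left out.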

Additional observations from a re-analysis of the deposited data

How the results depend on the processing

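Fads1 and Fads2 kept their direction and call under 19 of 20 alternatives each, and Scd2 kept its direction under all 20, with log2 changes from 6.28 to 6.96. The exception for the calls was the methods' paired t-test after Benjamini-Hochberg adjustment, which called 0 members, 0 list genes higher and 0 lower, and 0 probes in all, against 4 members and 7420 probes at an unadjusted p under 0.05; counts of members here include Scd2. Fads3 kept its direction under all 20 alternatives but lost its call under 9, among them spike-in scaling, no filter and the mean of its probes. Scd1 was called under 1 alternative and the shared Scd1 and Scd3 probe under 4, normexp, spike-in scaling, the replicate block and leaving out normal liver 2. With the Scd3 probe that lists no Scd1 transcript, chosen after seeing the data, the Scd3 change was -0.23 and the difference of Scd1 minus Scd3 turned from -0.10 to 1.04. List genes called lower numbered 7 with spike-in scaling and 8 without a filter, against 13. Leaving out 1 array gave 3 to 5 members called with Scd2 counted in, 13 to 14 list genes higher and 8 to 12 lower. Since Scd2 chose the family, nothing is read from the member counts. The count of 8 lower came without normal liver 2. Of the 5 genes nearest to Scd2, 0 were kept with normexp and 3 with the deposited table. Probes called over the array were 8239, and 5154 with spike-in scaling, 4674 without a filter, 5259 with the unpaired t-test after adjustment and 4954 without normal liver 2. The share of called genes that were higher was 38.5%, and 47.6% with quantile and 62.0% with spike-in scaling, which moved the median probe from -0.13 to 0.05. Leaving out 1 array kept the sign of all 10 differences between members: Fads1 minus Fads3 stayed at 2.20 to 2.66 and Fads2 minus Fads3 at 2.54 to 3.12. The causes of these shifts were not tested.

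Same-numbered arrays deviated together with correlations of 0.069, 0.132 and 0.051, and differently numbered arrays with correlations from -0.139 to 0.055. With 3 arrays per group these values cannot tell whether same-numbered samples share a mouse. The main fit used no pairing. The replicate block called 5 members with Scd2 counted in, 15 list genes higher and 13 lower, and 7021 probes.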
